A study of Mus musculus with 6 samples.

Results

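The Notch genes described here are the receptors Notch1, Notch2 and Notch3, the ligands Jag1, Jag2 and Dll1, the target genes Hes1, Hey1 and Nrarp, and the fringe enzyme gene Lfng. They were chosen by name, with earlier results of these data known. All 10 were found among the 25108 named genes of the expression table and among the 11035 genes with an adjusted p-value. Each of the 10 genes has 1 RefSeq transcript in the table, so no choice between transcripts enters its value. Primary epidermal keratinocytes came from skin of wild type C57BL/6 mouse pups at postnatal days 1 to 3 and were grown in medium with 0.05 mM calcium. The control group (3 libraries) was transfected with miR-Control, and the miR-148a group (3 libraries) with pro-miR-148a, which is labelled as overexpression of miR-148a. The labels give a dose of 200 nM and RNA collection 48 h after transfection. They do not say whether the 3 libraries of a group came from separate cultures or litters, so the p-values may measure technical spread only.

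The data are a table of the authors' comparison of the 2 groups. Each transcript has 1 base mean (a normalized count averaged over both groups), 1 log2 fold change with its standard error (SE) and, if counted well enough, 1 adjusted p-value, but no value per library. The spread between libraries, their depth and the overlap of the groups are therefore unknown for every gene below, and the SE is the only error. Among markers of the labelled cell type, the basal keratin gene Krt5 had the highest base mean of all tested genes in the authors' deposited table (630448), and the spinous keratin gene Krt10 had 2136. Trp63, a defining transcription factor of these cells, has 8 transcripts, all listed at 0 in the authors' deposited table, and Krt14, another basal keratin gene with 3 transcripts, reached only 40.3. Of 10 keratinocyte markers 9 were tested, of which 4 were lower with miR-148a, 2 were higher and 3 did not pass an adjusted p of 0.05. Over all tested genes 33.5% passed, and 54.1% of those with base means of at least 500. Transcripts of genes with several transcripts were listed at 0 in 73.9% of cases, against 34.5% for genes with 1, so a gene listed at 0 may still be expressed.

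Notch signalling passes between touching cells. A Jagged or Delta-like ligand on one cell binds a Notch receptor on its neighbour, ADAM10 and then gamma-secretase cut the receptor, and the freed intracellular domain joins the DNA-binding protein RBPJ and a Mastermind coactivator to switch on genes such as Hes1, Hey1 and Nrarp. In the epidermis the pathway is known for helping basal cells leave the proliferative layer and become spinous cells.

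The mature microRNAs that share the miR-148a seed are shown first, because the direction of every fold change below rests on sites for this seed. Capitals mark the seed, bases 2 to 8 from the 5′ end, and the sequences are those of RefSeq (GRCm38.p6).
mmu-miR-148a-3p: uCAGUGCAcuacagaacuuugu
mmu-miR-148b-3p: uCAGUGCAucacagaacuuugu
mmu-miR-152-3p: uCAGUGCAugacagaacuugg
The 3 microRNAs have the same seed, and a site for one is a seed site for all.

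Whether the fold changes are control over miR-148a or the reverse is not stated in the table. Messenger RNAs with a site for a raised microRNA are known to fall, and this was used to choose the reading. With the sign as deposited, the median log2 fold change was 0.12 for 376 genes whose 3′ untranslated region (UTR) holds an 8mer (TGCACTGA), 0.06 for 979 genes with a 7mer-m8 (TGCACTG) and -0.02 for 6552 genes with no site. UTRs with sites are longer, with medians of 2159.5 bases for the 8mer and 648.5 for no site, so genes were also divided into 4 bins of equal size by UTR length. From the shortest bin to the longest, the 8mer medians were 0.12 (17 genes), 0.10 (54), 0.22 (110) and 0.10 (195), against -0.02, -0.03, -0.01 and -0.01 for genes with no site. Site genes were thus higher as deposited in each of the 4 bins, and the deposited values are read here as control over miR-148a. Signs below were reversed accordingly, and positive values mean more RNA in the miR-148a group. The reading is inferred, and if it were wrong all directions would reverse.

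**Figure D1:**
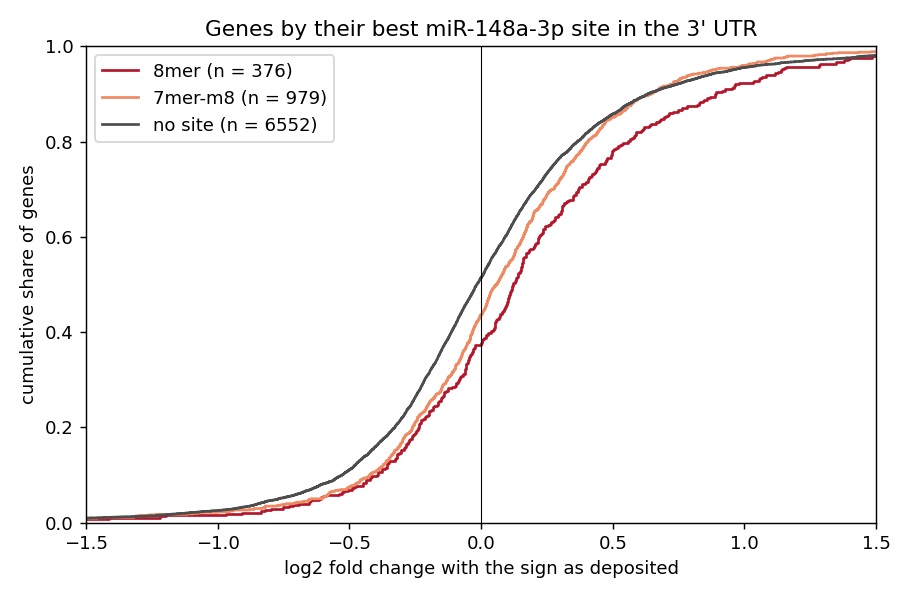
Cumulative share of genes (y axis) by log2 fold change with the sign as deposited (x axis), for genes whose best miR-148a-3p site is an 8mer (376 genes) or a 7mer-m8 (979 genes) and for genes with no site (6552 genes). The 8mer curve lies to the right, with a median of 0.12 against -0.02 for genes with no site.

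Of the 10 Notch genes 5 were lower with miR-148a, 2 were higher and 3 did not pass an adjusted p of 0.05 in the authors' deposited table. Both Jagged ligand genes and the target genes Nrarp and Hes1 were lower, while the receptor genes Notch1 and Notch2 were higher. Over all tested genes, 33.5% passed the same threshold, 16.8% lower and 16.7% higher. Calls are more frequent among well counted genes: at base means of at least 500, which 9 of the 10 Notch genes reach, 54.1% passed, 23.8% lower and 30.3% higher. Of those 9 Notch genes 7 passed. The median log2 fold change of the 10 was -0.14, against -0.01 over all tested genes, and it describes none of them well, since members lay on both sides of 0.

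**Figure D2:**
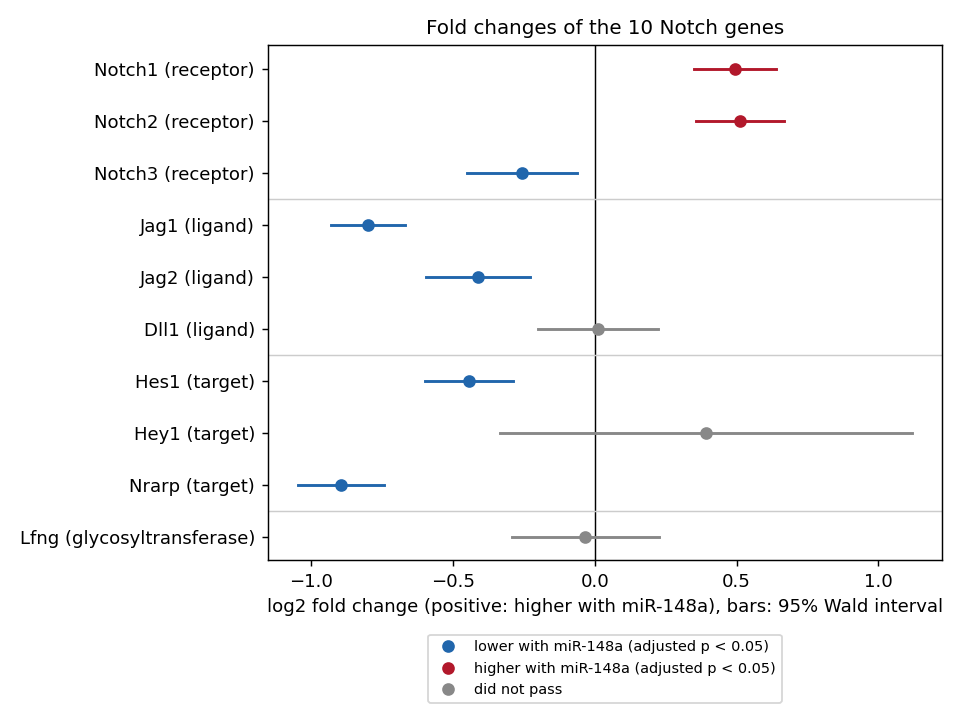
Log2 fold change of each of the 10 Notch genes (x axis; right of 0 is higher with miR-148a), grouped by role; points are the authors' values with the sign turned, and bars are 95% Wald intervals from their SE. Jag1 and Nrarp lie farthest to the left, Notch1 and Notch2 to the right, and the bar of Hey1 spans 0.

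The receptors divided. Notch1, the receptor best known for driving keratinocytes into the spinous state, was 1.41-fold higher with miR-148a (log2 fold change 0.49 ± 0.07 SE, 95% interval 0.35 to 0.64, adjusted p = 2.67e-10, base mean 7506, NM_008714, authors' deposited table). Notch2, a second receptor of the epidermis, was higher by almost the same amount in the authors' deposited table, 1.43-fold (0.51 ± 0.08 SE, interval 0.36 to 0.67, adjusted p = 1.3e-09, base mean 7755, NM_010928). Among all tested genes, 10.5% had a higher fold change than Notch1 and 9.73% a higher one than Notch2. Notch3, a receptor of keratinocytes and of the mural cells of vessels, was 1.19-fold lower in the authors' deposited table (-0.25 ± 0.10 SE, interval -0.45 to -0.06, adjusted p = 0.0336, base mean 2436, NM_008716). This is the weakest of the 7 calls: with p-values adjusted over all transcripts, low ones included, its adjusted p was 0.051.

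Both Jagged ligands were lower with miR-148a. Jag1 fell 1.74-fold in the authors' deposited table (log2 fold change -0.80 ± 0.07 SE, interval -0.93 to -0.67, adjusted p = 1.1e-31, base mean 5034, NM_013822). Jag2 fell 1.33-fold in the authors' deposited table (-0.41 ± 0.09 SE, interval -0.59 to -0.23, adjusted p = 7.13e-05, base mean 4736, NM_010588). The intervals of the 2 ligands do not overlap; their difference was not tested, because it needs values per library. Dll1, the Delta-like ligand of basal and stem cells, had a log2 fold change of 0.01 ± 0.11 SE and did not pass (adjusted p = 0.952, base mean 1275, NM_007865, authors' deposited table). Its interval, -0.20 to 0.22, does not reach the value of either Jagged gene.

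Of the 3 target genes, the well counted pair was lower. Nrarp, which encodes a small ankyrin repeat protein that is switched on by Notch and limits it, had the lowest value of the 10 genes in the authors' deposited table, 1.86-fold lower (log2 fold change -0.89 ± 0.08 SE, interval -1.04 to -0.74, adjusted p = 6.15e-29, base mean 2888, NM_025980). Only 5.71% of all tested genes had a lower fold change than Nrarp, and 7.15% a lower one than Jag1. Hes1, a transcriptional repressor and the best known Notch target, was 1.36-fold lower in the authors' deposited table (-0.44 ± 0.08 SE, interval -0.60 to -0.29, adjusted p = 2.04e-07, base mean 1856, NM_008235). Hey1, a related repressor, was too weakly counted for a direction: the authors' deposited table gives a base mean of 23.3, and its log2 fold change of 0.39 ± 0.37 SE did not pass (interval -0.33 to 1.12, adjusted p = 0.482, NM_010423).

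Lfng, the fringe enzyme that adds a sugar to Notch and shifts its preference from Jagged toward Delta-like ligands, did not pass in the authors' deposited table (log2 fold change -0.03 ± 0.13 SE, interval -0.29 to 0.23, adjusted p = 0.893, base mean 657, NM_008494).

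**Figure D3:**
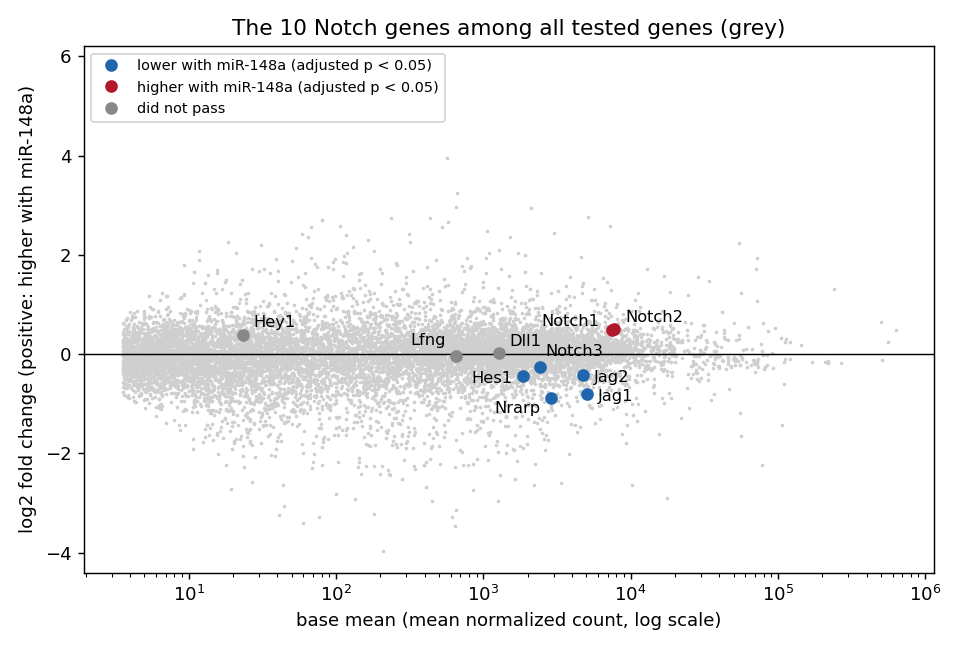
Log2 fold change (y axis, positive is higher with miR-148a) against base mean (x axis, log scale) for all tested genes in grey and the 10 Notch genes in colour by call. Notch1 and Notch2 nearly coincide at base means of 7506 and 7755, and Hey1 is the only member at a low base mean, 23.3.

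Levels between genes can be compared only per transcript length. Base mean per kilobase of the matched GENCODE M21 transcript was highest for Hes1 (1265) and Nrarp (1118), whose short transcripts gave them middling base means. Jag2 (928), Jag1 (897), Notch1 (791) and Notch2 (739) followed closely on this scale. Dll1 (356), Notch3 (304) and Lfng (285) formed a lower set, and Hey1 lay far below at 9.60 per kilobase. Without values per library it is unknown which neighbours in this order differ beyond their spread.

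**Figure D4:**
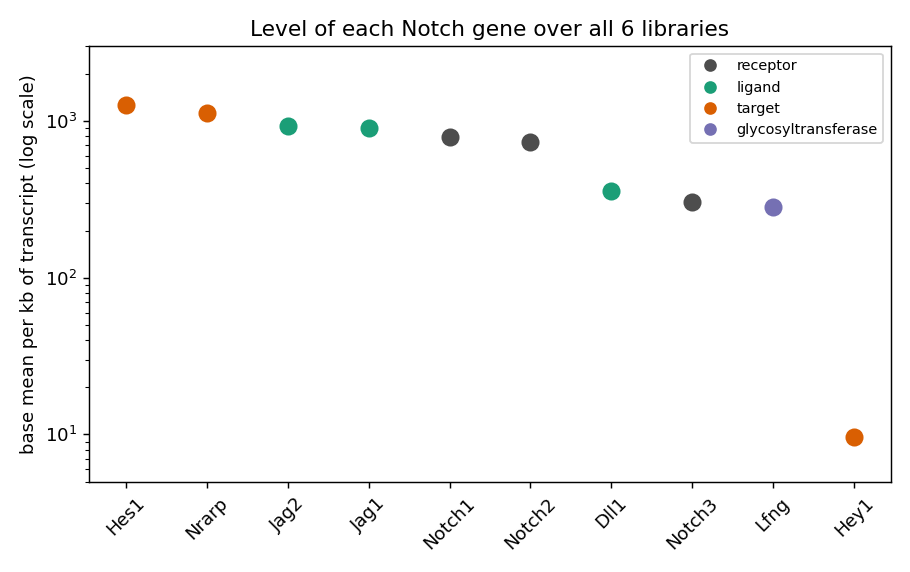
Base mean per kilobase of transcript (y axis, log scale) of each Notch gene over all 6 libraries, coloured by role and ordered from highest to lowest; there is no error bar because no value per library is given. Hes1 is highest at 1265 and Hey1 lowest at 9.60.

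Seed sites for miR-148a were found in the 3′ UTR of 8 of the 10 genes, but only 4 hold a site of 7 or more bases. These 4 are shown as the 30 bases that end with the site, with the site in capitals, from the GENCODE M21 transcript (GRCm38) matched to each RefSeq transcript.
Nrarp: cttgagtctaccattttttggtTGCACTGA
Hes1: gagctgtattaagtgactgaccaTGCACTG
Notch3: tttgtagctgaattcccaggtccTGCACTG
Notch2: cagatgaaggtactcttggctgcTGCACTG
The 8mer of Nrarp starts at base 674 of a UTR of 1884 bases, counted from 1 at the base after the stop codon. The 7mer-m8 sites start at base 174 of 368 in Hes1, 936 of 1000 in Notch3 and 1043 of 2917 in Notch2. Of these 4 genes Nrarp, Hes1 and Notch3 were lower with miR-148a and Notch2 was higher. Of all 376 genes whose best site is an 8mer, 117 passed as lower and 44 as higher. For the 979 genes with a 7mer-m8 these counts were 196 and 150, and for the 6552 with no site 1045 and 1241. Jag1 and Jag2, both lower, hold only 6mer matches (GCACTG), 1 and 2 of them, as do Dll1 and Hey1 with 1 each. Notch1, which was higher, and Lfng hold none. Among all genes used to choose the sign, the best site was an 8mer in 376, a 7mer-m8 in 979 and a 7mer-A1 (GCACTGA) in 606. A 6mer was the best site in 1428, and 6552 held no site. The members were not matched to these genes by UTR length, so whether they are rich in sites was not tested. Since sites over all genes set the sign of the table, a lower value in a gene with a site is no independent evidence that the site acted.

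A second sequence feature was the RBPJ core motif TGGGAA, searched on both strands with no overlap between copies, from 250 bases before to 50 after each start in the RefSeq promoters (GRCm38.p6). Of 8 members with a promoter in that set, 1 held it: Lfng, with 2 copies. The motif occurs in 25.6% of all 32851 promoters of this length. The match is a description of these windows only. Hes1 and Hey1 have no promoter in that set and were not searched.

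The rest of the pathway was read from a list of 60 genes by role. Of these, 32 were tested in the authors' deposited table: 8 were lower with miR-148a, 7 were higher and 17 did not pass, with a median log2 fold change of -0.07. The share called, 46.9%, lies between the 33.5% of all tested genes and the 54.1% of well counted ones. The other 28 genes were listed at 0 or had too low a base mean for an adjusted p, and 23 of them have more than 1 transcript in the table. They include Rbpj, Numb and Psen2, all listed at 0 in the authors' deposited table, so the DNA-binding partner of Notch itself cannot be described.

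Of 7 further genes of the Hes and Hey family, 4 were listed at 0 and 1 had too low a base mean for an adjusted p. The 2 tested ones, Heyl and Hes7, were lower with miR-148a, beside 16.8% of all tested genes. Hes1 was lower too, while Hey1 (0.39 ± 0.37 SE, base mean 23.3) did not pass. Heyl was 3.48-fold lower (-1.80 ± 0.39 SE, adjusted p = 2.7e-05, authors' deposited table) and Hes7 2.68-fold lower (-1.42 ± 0.36 SE, adjusted p = 0.000485, authors' deposited table), although at base means of only 20.2 and 33.4. Heyl had a lower fold change than all but 0.915% of tested genes. Dtx4, a Deltex-family ubiquitin ligase gene, was 2.41-fold lower in the authors' deposited table (-1.27 ± 0.20 SE, adjusted p = 5e-09, base mean 142). Neurl1b, a ubiquitin ligase that acts on Notch ligands, was 1.77-fold higher (0.82 ± 0.19 SE, adjusted p = 7.28e-05, authors' deposited table). Of 8 tested genes of ubiquitination and endocytosis, these were the 2 that passed (25%), against 33.5% of all tested genes.

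The enzymes that cut the receptor went both ways. Adam10, the protease of the first cut after ligand binding, was 1.26-fold lower in the authors' deposited table (log2 fold change -0.33 ± 0.07 SE, adjusted p = 2.56e-05). The UTR of Adam10 holds an 8mer at base 1902, whose effect was not tested. Ncstn, the gene of the gamma-secretase subunit nicastrin, was 1.22-fold higher (0.29 ± 0.08 SE, adjusted p = 0.000774, authors' deposited table). Aph1b, another subunit gene, was 1.22-fold lower (-0.29 ± 0.11 SE, adjusted p = 0.035, authors' deposited table). Aph1b has a near-identical copy, Aph1c (-0.42 ± 0.19 SE, adjusted p = 0.0768, authors' deposited table), and reads may have been split between them. With no filter on the mean Aph1b did not pass (adjusted p = 0.0532). Furin, Aph1a and Aph1c did not pass.

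Of 3 other tested genes of sugar-adding enzymes 1 passed (33.3%), against 33.5% of all tested genes. Rfng, a fringe related to Lfng, was 1.46-fold higher in the authors' deposited table (0.55 ± 0.10 SE, adjusted p = 5.21e-07, base mean 834). Pofut1 (-0.23 ± 0.10 SE, adjusted p = 0.0656) and Poglut1 (0.05 ± 0.38 SE, adjusted p = 0.944) did not pass in the authors' deposited table. Dlk2, a Delta-like protein that lacks the usual receptor-binding domain, was 1.77-fold higher at a base mean of 46.3 (0.82 ± 0.34 SE, adjusted p = 0.0494, authors' deposited table). The call of Dlk2 was lost with its other tested transcript (0.29, adjusted p = 0.616), with no filter on the mean (adjusted p = 0.075) and with recentred fold changes (adjusted p = 0.0596). In the nuclear complex 1 of 5 tested genes passed: the Mastermind gene Maml3 was 1.37-fold higher (0.45 ± 0.07 SE, adjusted p = 1.46e-09, base mean 2790) in the authors' deposited table, although its UTR holds 2 8mers. The 4 tested corepressor genes passed in the authors' deposited table, beside 33.5% of all tested genes and 54.1% of those with base means of at least 500: Ncor1 (-0.46 ± 0.18 SE, adjusted p = 0.0353), Cir1 (-0.38 ± 0.10 SE) and Kdm5a (-0.32 ± 0.07 SE) were lower, and the histone deacetylase gene Hdac1 was higher (0.27 ± 0.07 SE). Of these, Ncor1 no longer passed with its tested transcript of lowest base mean (-0.32, adjusted p = 0.614) or with no filter on the mean (adjusted p = 0.0536).

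**Figure D5:**
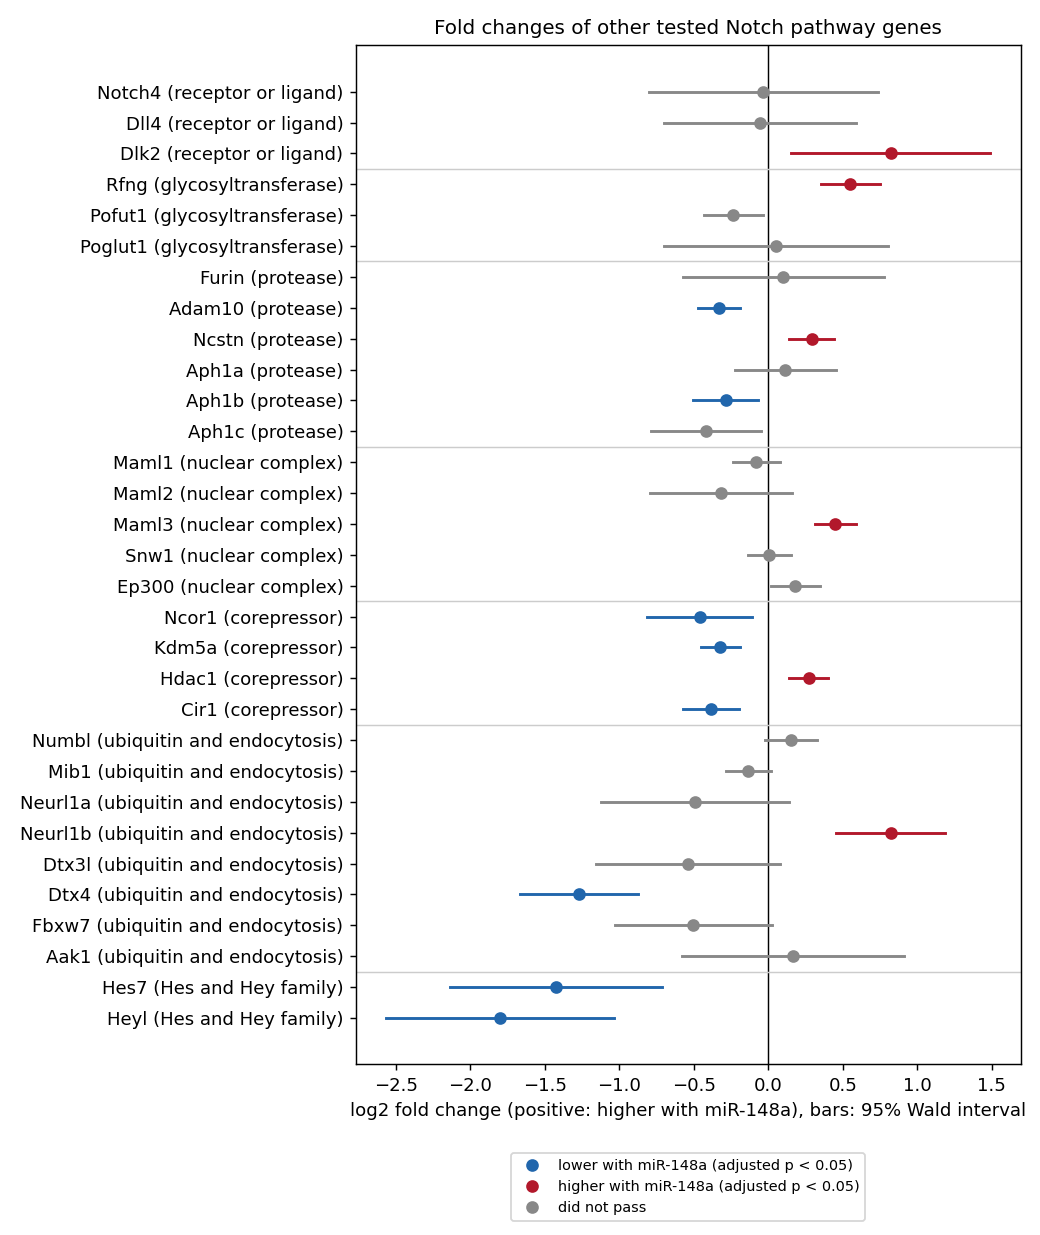
Log2 fold change (x axis, positive is higher with miR-148a) of 31 of the 32 other tested Notch pathway genes, grouped by role; points are the authors' values with the sign turned and bars are 95% Wald intervals. Heyl, Hes7 and Dtx4 lie farthest to the left, and Dlk2 and Neurl1b to the right at 0.82 each.

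Of 9 epidermal genes tied to Notch, 8 were tested: 6 were lower with miR-148a, 1 was higher and 1 did not pass, with a median log2 fold change of -0.51 in the authors' deposited table. Over all tested genes 16.8% were lower, and 23.8% of those with base means of at least 500. The lower ones in the authors' deposited table included the spinous keratin genes Krt1 (-1.32 ± 0.18 SE) and Krt10 (-0.88 ± 0.12 SE), the Hedgehog effector gene Gli2 (-0.66 ± 0.11 SE), the envelope gene Ivl (-0.60 ± 0.08 SE) and the cytokine gene Tslp (-0.29 ± 0.11 SE, adjusted p = 0.0395). The call of Tslp was lost with its other tested transcript (-0.30, adjusted p = 0.534) and with no filter on the mean (adjusted p = 0.0599). Wnt4, a Wnt ligand gene, was higher in the authors' deposited table (0.50 ± 0.08 SE, base mean 9676). The list was not divided by the direction in which Notch acts on each gene, so its counts and median do not measure Notch output. Cdkn1a, the cell cycle inhibitor p21, did not pass in the authors' deposited table (0.33 ± 0.36 SE, base mean 23.5), and Trp63 was listed at 0. Krt1, Krt10 and Ivl also mark differentiation as such, so this list does not separate Notch from differentiation.

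Markers of other cells moved in the same comparison, and some of those cells also use Notch genes. Their counts stand beside 16.8% lower and 16.7% higher over all tested genes, and 23.8% and 30.3% among those with base means of at least 500. Of 8 fibroblast markers 5 were lower and none was higher in the authors' deposited table (median -0.36, summed base mean 25055), among them Col1a1 (-0.42 ± 0.10 SE) and Thy1 (-0.85 ± 0.12 SE). Of 5 markers of mural cells, 2 were tested in the authors' deposited table and both were lower, Acta2 (-0.75 ± 0.09 SE) and Cspg4 (-0.51 ± 0.12 SE), while Pdgfrb was listed at 0 and Rgs5 and Des stood at base means of 2.34 and 3.04. For endothelial cells Pecam1, Tek and Emcn were listed at 0 and Cdh5 stood at 0.332 in the authors' deposited table; of 3 tested markers Vwf was lower (-0.81 ± 0.26 SE) and the VEGF receptor gene Kdr was 6.65-fold higher (2.73 ± 0.18 SE, base mean 438), with 0.0544% of all tested genes higher than Kdr. For melanocytes, where Dct (base mean 6493) and Pmel (8101) were well counted in the authors' deposited table, 1 of 5 tested markers was lower and none was higher. Of 3 tested immune markers 2 were lower, by 6.18-fold and 6.59-fold at low base means: Lyz2 (-2.63 ± 0.34 SE, base mean 43.8) and C1qa (-2.72 ± 0.39 SE, base mean 19.4) in the authors' deposited table. Cd68, the best counted of the 3, did not pass in the authors' deposited table (-0.16 ± 0.14 SE, adjusted p = 0.463, base mean 416). Ptprc, Cd74 and Cd207 were listed at 0. Their part in the values of Notch3, Jag1, Heyl and the other Notch genes was not tested, and in bulk RNA fewer cells of a type and less RNA per cell cannot be told apart. Levels of these markers in each group cannot be given without values per library.

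In the authors' deposited table of gene ontology categories, 1 of 951 categories has Notch in its name. This was Notch binding, with 0 of 2 genes counted as changed (over-representation adjusted p = 1). Which 2 genes these were and the cut-off for a changed gene are not known here. The count therefore cannot be set beside the calls above.

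Exons of some members overlap noncoding genes in GENCODE M21: on the opposite strand for Notch1, Notch3, Dll1 and Nrarp, and on the same strand for Notch2. No source used here says whether reads were counted by strand, so reads from these partners cannot be told apart from those of the members.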

How the data were processed

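The 6 libraries were grouped by their titles. The title of the third miR-148a library repeats the sample number of the first, although their replicate numbers differ. The submitters' processing notes name DESeq2 and mm9 without a version or role; aligner, counter and annotation: not given in the sources used here. For 42885 transcripts the authors deposited a base mean (a signal, the average normalized count), a log2 fold change with standard error, a Wald score, p-values and adjusted p-values, per the file headers. Standard errors stop at 0.393, as when fold changes are shrunk toward 0, so those of weakly counted genes are understated. A second deposited table gives p-values by ontology category.

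RefSeq accessions gave symbols to 42734 transcripts (GRCm38.p6), and the transcript with the highest base mean stood for its gene. Without values per library, the authors' adjusted p at 0.05 marks a call. Under the alternatives, p-values were adjusted again, for recentred fold changes from a Wald score recomputed with the authors' SE. The 95% intervals are the log2 fold change ± 1.96 SE. Because the builds differ, no gene coordinates are given. UTRs (at least 20 bases) and lengths came from GENCODE M21 transcripts matched by RefSeq accession (for UTRs, otherwise the longest of the gene). The adjustment, recentring and site search were tested on simulated data (Python 3.11.15, pandas 2.3.3, numpy 2.4.6, matplotlib 3.10.9).

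Members and lists were chosen with earlier results of these data known. The text names all members, the epidermal genes and, per role of the other pathway genes, up to 4 that passed with the largest absolute change. Of the genes this rule covers, 2 are not reported here, nor plotted among the other pathway genes. Aph1c, Furin, Aph1a, Pofut1, Poglut1, Aak1, Rbpj, Numb, Psen2 and the markers were chosen after their values were seen. Alternatives were another transcript per gene, other adjustments, recentred fold changes and a stricter threshold.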

Additional observations from a re-analysis of the deposited data

How the results depend on the processing

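Counts of called genes among the 10 members, the other pathway genes and the epidermal genes stayed within 1.5 times under 6 alternatives. The 10 members gave 6 or 7 calls. Of 59 recomputed member values 56 kept their direction and side of the threshold. Only recentring changes the fold change of a member, so direction could turn under that alternative alone. The choice of transcript could change no member, since each has 1. Notch3 (log2 fold change -0.25) no longer passed with p-values adjusted over all transcripts with no filter on the mean (adjusted p = 0.051) or at a threshold of 0.01 (adjusted p = 0.0336), and its adjusted p ranged from 0.0167 to 0.051. Dll1, which passed under none of the 6, turned from 0.0126 to -0.0141 when fold changes were recentred on the median of transcripts with a base mean of at least 100, a shift of 0.03. The same alternatives were applied gene by gene to the 22 called genes of the other 2 lists, a step chosen after seeing the data, and 4 (Aph1b, Dlk2, Ncor1 and Tslp) lost their call under at least 1 alternative, and 117 of the 129 recomputed values kept direction and side of the threshold. Hey1 has no value where base means under 100 were left out. No paired analysis was possible because the table has no value per library, and leaving out each replicate was not run for the same reason. Depth per library is unknown, and no counting interval is given.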
